A study of Mus musculus with 87 samples.

Results

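The genes described here are Zic1, Zic2, Zic4 and Zic5 of the Zic family of zinc finger transcription factors, 4 of the 26171 gene symbols in each of 13 RNA-seq comparison tables. They were taken by name and not by any measured value; other Zic genes were not analysed here. The study concerns Suz12, which belongs to the core of PRC2, the Polycomb complex that writes the repressive histone mark H3K27me3, and asks what inclusion or loss of the alternatively spliced exon 4 of Suz12 does. Polyadenylated RNA was sequenced from 32 samples of the mouse embryonic stem cell (ESC) line labelled 129-B13, either kept in serum with LIF (18 samples) or turned into neuronal precursors (NP, 14 samples) through embryoid bodies, with retinoic acid on day 4 and harvest on day 8. In ESC the groups were wild type (WT, 3 samples), cells that always include exon 4 (CSex4, 2), cells whose exon 4 was deleted (Deltaex4, 2), the full Suz12 knock-out (KO, 3), and 4 lines that carry that knock-out together with a rescue: the long isoform (KO-L, 2), the short isoform (KO-S, 2) and the same isoforms carrying a mutation named 3D at position 196 (KO-L3D and KO-S3D, 2 each). The 3D rescues were placed in the Rosa26 locus. In NP the groups were WT (4, in separate pairs), KO, KO-L, KO-S, CSex4 and Deltaex4 (2 each). The labels do not say whether a line is 1 clone or whether the samples of a group came from separate cultures, so that every p-value measures only the spread between these samples.

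Zic proteins bind DNA through zinc fingers related to those of the Gli proteins, the transcriptional arm of Hedgehog signalling. The genes lie in head-to-head pairs and are known for their expression in the dorsal neural tube, the neural plate and the neural crest, and Zic1 and Zic4 also in the developing cerebellum. Zic2 is also active in pluripotent cells, where it binds enhancers, and mutations of its human counterpart cause holoprosencephaly. Developmental genes of this kind are classical PRC2 targets in ESC.

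Each of the 4 Zic genes overlapped at least 1 region of both deposited ChIP-seq lists, which hold 2865 regions for Suz12 and 6882 for H3K27me3. Per their headers the lists come from DiffBind with the false discovery rate set at 5% and give 1 value per region, which is the authors'; the headers do not say in which direction or against which group a region differed from WT. Among 20992 protein-coding genes, 11.7% overlapped a Suz12 region and 21.0% an H3K27me3 region. Within 2500 bp of a region lay 12.2% for Suz12 and 23.0% for H3K27me3. On mm10 (gene models of RefSeq, GRCm38.p6), Zic1 (chr9:91358058-91365768, minus strand) and Zic4 (chr9:91365631-91389351, plus strand) lay whole within an H3K27me3 region at chr9:91348485-91410218. That region was 61734 bp wide, the 4th widest in its list, and 6th by the authors' value. A Suz12 region of 13130 bp (chr9:91358954-91372083) held the start sites of both genes, and a second of 13839 bp (chr9:91375407-91389245) lay over the distal part of Zic4.

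Zic5 (chr14:122459160-122465658, minus strand) and Zic2 (chr14:122475384-122480328) were 9726 bp apart. Zic2 lay whole within an H3K27me3 region of 19244 bp (chr14:122474751-122493994) and within a Suz12 region of 21125 bp (chr14:122470741-122491865), the 9th widest of the Suz12 list. Of all protein-coding genes, 0.881% were covered whole by a Suz12 region and 1.69% by an H3K27me3 region. Zic5 was covered in part: 49.7% of the gene, start site included, by an H3K27me3 region (chr14:122462427-122468887) and 47.0% by a Suz12 region of 3489 bp (chr14:122462607-122466095). The gene models of Zic1 and Zic4 overlap by 138 bp, and no source used here says that the counting used strand, so that reads from this overlap cannot be assigned to either gene.

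**Figure D1:**
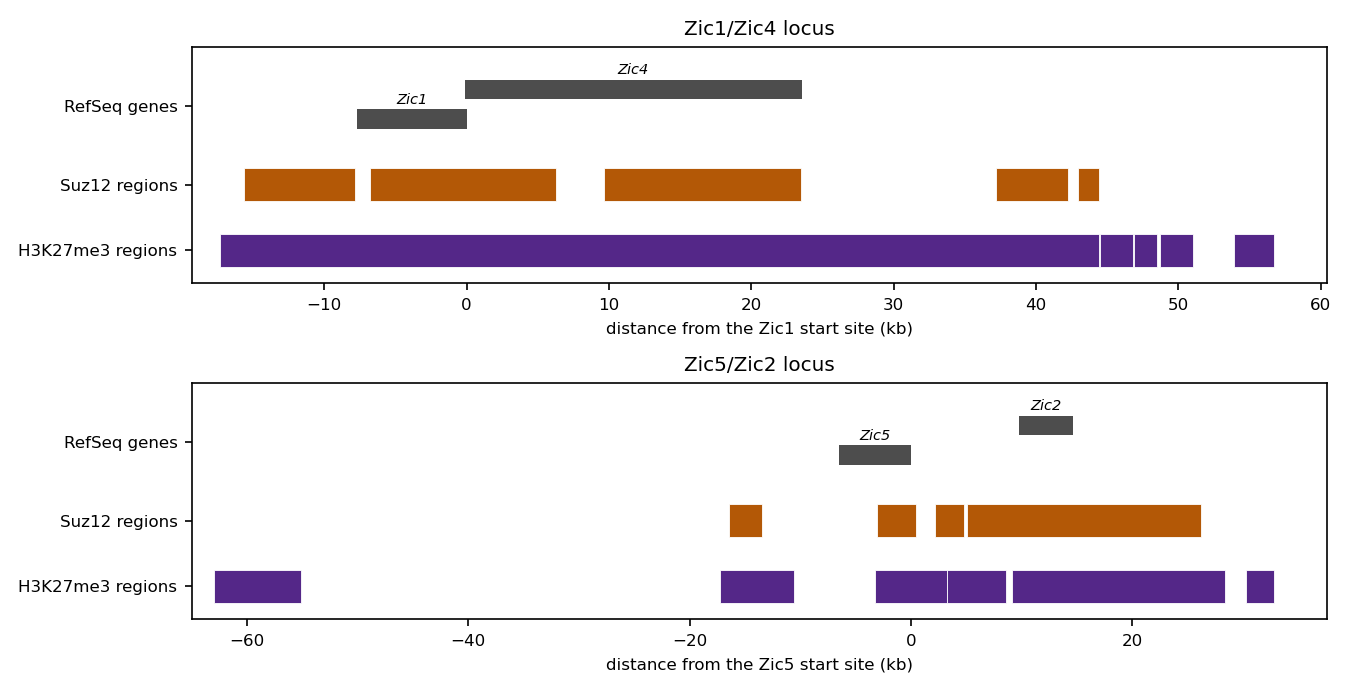
Suz12 regions (orange), H3K27me3 regions (purple) and RefSeq gene models (grey) at both Zic loci, against the distance in kb from the start site of Zic1 (top) or Zic5 (bottom). A single H3K27me3 region of 61734 bp spans Zic1 and Zic4, while Zic5 is covered over 49.7% of its length and Zic2 whole.

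The start sites of Zic1, Zic4 and Zic5 lay inside regions of both lists, and the 250 bases before them are given here to show how these promoters differ (RefSeq, GRCm38.p6, 5′ to 3′ on the strand of the gene), with CpG dinucleotides, the unit of CpG islands, in capitals. Of the 4 genes, 3 were matched to a RefSeq promoter; the Zic4 start site used there lies inside its gene model, 3204 bp from that of Zic1.
Zic1 promoter (chr9:91365769-91366018, minus strand): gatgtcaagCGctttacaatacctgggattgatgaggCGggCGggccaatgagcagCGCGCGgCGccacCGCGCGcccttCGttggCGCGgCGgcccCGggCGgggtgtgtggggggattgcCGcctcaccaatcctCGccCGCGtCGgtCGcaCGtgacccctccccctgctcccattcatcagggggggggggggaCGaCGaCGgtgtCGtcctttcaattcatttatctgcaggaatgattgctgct
Zic4 promoter (chr9:91368722-91368971, plus strand): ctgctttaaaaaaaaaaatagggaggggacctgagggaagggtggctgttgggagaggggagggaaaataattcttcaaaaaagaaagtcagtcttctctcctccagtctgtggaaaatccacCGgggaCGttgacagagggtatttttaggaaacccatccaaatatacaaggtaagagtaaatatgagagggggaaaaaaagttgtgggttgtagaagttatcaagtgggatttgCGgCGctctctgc
Zic5 promoter (chr14:122465659-122465908, minus strand): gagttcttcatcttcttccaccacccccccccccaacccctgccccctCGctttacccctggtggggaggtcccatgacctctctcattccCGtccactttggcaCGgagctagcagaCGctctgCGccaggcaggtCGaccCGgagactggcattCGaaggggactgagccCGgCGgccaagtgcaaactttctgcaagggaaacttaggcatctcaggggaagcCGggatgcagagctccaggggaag

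The 3 sequences differed in CpG content. The Zic4 window lies before a start site inside the gene model, so that its CpG content is not that of the model's outer end. That end, at chr9:91365631, lies close to the Zic1 window. The Zic1 promoter held 27 CpG at 66% GC, the Zic5 promoter 11 at 62.4% and the Zic4 promoter 4 at 44.4%, where the median over 27018 RefSeq promoters was 6 CpG and 52% GC. As many CpG as in Zic1 or fewer were counted in 92.7% of promoters, and as many as in Zic4 or fewer in 44.5%. On both strands the Zic1 window held GGGCGG (GC box) 2 times and CCAAT 2 times, which 32.9% and 34.5% of promoters hold at least once. None of the 3 windows held TATAAA (12.97% of promoters), CAGCAGG (the core of a Zic motif, 8.34%) or GACCACCCA (a Gli site, 0.211%), and the Zic4 and Zic5 windows also lacked GGGCGG and CCAAT.

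The deposited tables give statistics of comparisons and no value per sample, so levels are given as the baseMean, the authors' mean of scaled reads over all libraries of a table. Over the 7 ESC tables, the authors' deposited baseMean was 315 to 746 for Zic2 and 218 to 352 for Zic5. Zic1 had 3.90 to 22.5, and under 10 in 4 of these tables. Zic4 had 0.182 to 1.80, under 10 in all 7, and no statement on Zic4 in ESC is drawn from values this low. Over the 6 NP tables the authors' deposited baseMean was 417 to 3294 for Zic1, 286 to 1299 for Zic2, 12.2 to 322 for Zic4 and 85.2 to 395 for Zic5. ESC thus gave reads mainly of the Zic2 and Zic5 locus, and NP reads of all 4 genes.

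From each baseMean and fold change the level of both groups of a table follows approximately, here as scaled reads per 1000000 of the table's summed baseMean (RPM). These levels come from separately normalized tables and are not divided by transcript length, so that they have no test and are read within a gene only. Zic1 was at 0.201 to 0.272 RPM in ESC WT over the tables that contain it, and at 77.1 to 87.8 in the first NP WT pair. Zic4 was at 0.00619 to 0.0125 in ESC WT and at 6.17 to 8.08 in the first NP WT pair. Zic2 was at 16.5 to 17.7 in ESC WT and 29.6 to 32.5 in the first NP WT pair, and Zic5 at a median of 11.2 and at 8.58 to 9.54. The second NP WT pair had levels of 78.5 for Zic1, 28.6 for Zic2, 6.01 for Zic4 and 8.51 for Zic5 RPM. Zic1 and Zic4 were thus near the lower end of detection in ESC WT and well above it in NP WT, while Zic2 and Zic5 were read at levels of the same order in both.

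**Figure D2:**
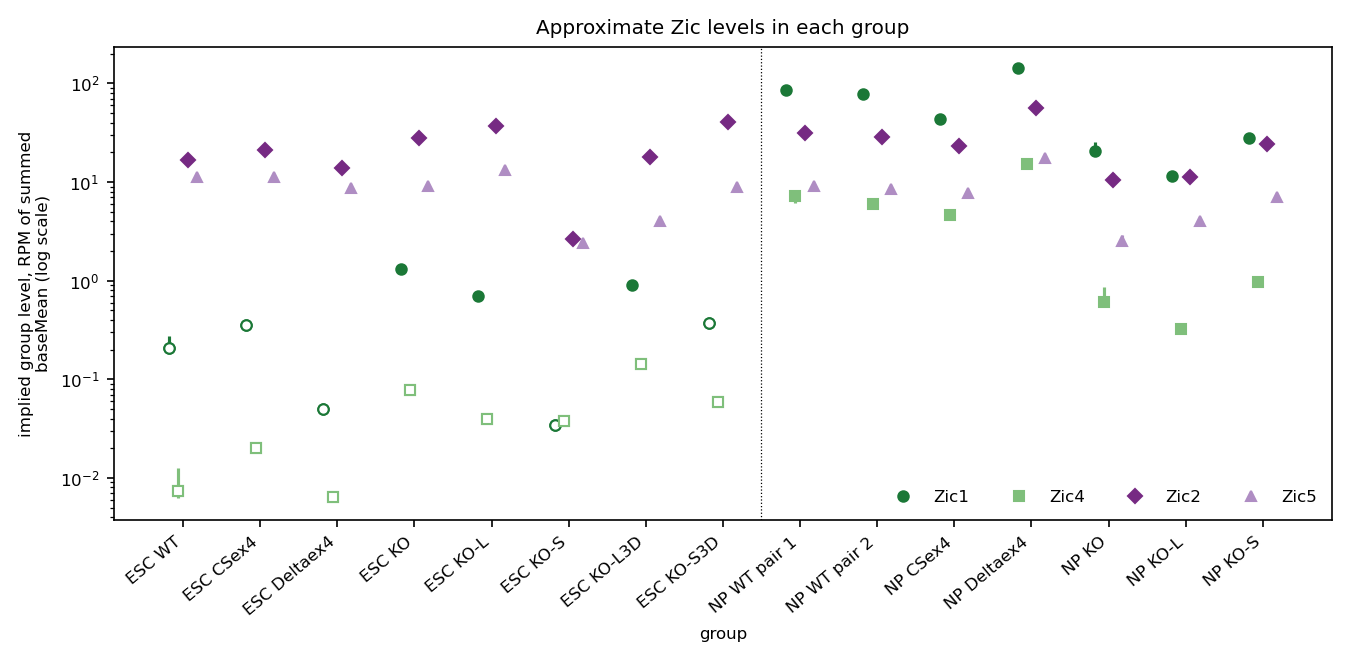
Approximate level of each Zic gene in each group, in RPM on a log axis; points are medians over the tables that contain the group, vertical lines their range, and open points come from at least 1 table with a baseMean under 10. Zic2 drops to 2.66 in ESC KO-S and reaches 40.4 in ESC KO-S3D; in NP, Zic1 spans 11.5 in KO-L to 142 in Deltaex4.

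As a check of the labels, the authors' deposited tables put Suz12 at a log2 fold change of -1.82 ± 0.22 (SE) in the knock-out ESC and of -2.14 ± 0.33 in the knock-out NP. The approximate Suz12 level was 185 to 187 RPM in the first NP WT pair and 114 in the second. In ESC it stood at 215 to 231 RPM in WT, 224 for CSex4, 89.8 for Deltaex4 and 62.3 for KO, and rescue lines KO-L and KO-S had 104 and 124. The libraries labelled KO-L3D were at 63.7 RPM, about the level of the KO without rescue, with -1.85 ± 0.28 against WT in the authors' deposited table, and those labelled KO-S3D at 222 RPM, about the level of WT. Fixed marker lists were read beside the Zic genes. Summed levels of 6 ESC markers (Pou5f1, Nanog, Sox2, Zfp42, Esrrb, Klf4) were 2309 to 3450 RPM in ESC tables and 219 to 804 in NP tables, and those of 6 neural precursor markers (Sox1, Pax6, Nes, Fabp7, Hes5, Tubb3) 98.6 to 210 and 221 to 885. Bulk RNA cannot tell fewer cells of a type from less RNA per cell.

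Of the 52 values that 4 genes have in 13 tables, 42 had an adjusted p. Of these, 17 were called at an adjusted p under 0.05, 9 higher and 8 lower. The adjusted p is that of DESeq2 as deposited, which not every gene of a table has. By gene, 4 calls fell to Zic1, 6 to Zic2, 2 to Zic4 and 5 to Zic5. ESC gave 6 calls and NP 11. The share of genes called per comparison ranged from 0% to 18.3% in ESC and from 0.0809% to 34.5% in NP. Throughout, such shares are of the genes with an adjusted p, 13811 to 20263 of the 26171 symbols per comparison. NP KO against WT gave 4 calls lower, and the second NP WT pair against the same KO libraries gave 4 higher. Both compare KO with WT in opposite directions, so that the split into 9 higher and 8 lower depends on which group was the reference.

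In ESC without Suz12, Zic1 and Zic2 rose and Zic5 was not called. The KO table calls 18.3% of its genes, and 2 of the 3 Zic genes with an adjusted p. Zic1 went from about 0.209 RPM in WT to 1.32 in KO, a log2 fold change of 2.66 ± 0.74 (adjusted p 0.00363) in the authors' deposited table, at a baseMean of only 22.5. Zic2 went from 16.8 to 28.3 RPM, or 0.75 ± 0.20 (adjusted p 0.00285) in the authors' deposited table. Its neighbour Zic5, at 11.1 and 9.08 RPM, had -0.29 ± 0.24 (adjusted p 0.459) there, with a 95% interval of -0.76 to 0.18. Zic2 and Zic5 share a locus, and within it the knock-out values lay on opposite sides of 0. All 4 neural crest markers (Sox10, Foxd3, Tfap2a, Snai2) were called higher in ESC KO as well (12.5 to 49.5 RPM), with 3 of 4 trophoblast markers (3.88 to 31.2 RPM), 1 of 4 mesoderm markers (1.63 to 4.79 RPM), 2 of 6 ESC markers and 0 neural precursor or endoderm markers; their part in the Zic values was not tested.

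The short-isoform rescue had the lowest approximate Zic2 and Zic5 levels of the 8 ESC groups. Zic2 fell from 16.5 RPM in WT to 2.66 in KO-S, a log2 fold change of -2.63 ± 0.40 (adjusted p 1.19e-08), or 6.20-fold, in the authors' deposited table. Zic5 fell to 2.43 RPM, a log2 fold change of -2.18 ± 0.44 (adjusted p 5.08e-05), or 4.55-fold, in the authors' deposited table. Both Zic genes with an adjusted p were thus called lower, in a table that calls 7.91% of its genes, 3.63% lower. The direction in KO-S was opposite to that in the KO for Zic2. At the same locus the authors' deposited table had 0.04 ± 0.32 (adjusted p 0.972) for Pcca, named here for its position, which begins 4037 bp beyond Zic2 and encodes a mitochondrial carboxylase subunit. The genes flanking either Zic pair were read together, on chromosome 14 and, at least 797165 bp away from Zic1 and Zic4, on chromosome 9. Of the 6 with an adjusted p, 0 were called in KO-S by DESeq2. By DESeq2, 1 of them, Clybl on chromosome 14, had an unadjusted p under 0.05 (p 0.0372).

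The long-isoform rescue went the other way for Zic2. In the authors' deposited table Zic2 rose by 1.18 ± 0.33 in KO-L (adjusted p 0.0236), from 16.5 to 37.4 RPM, the 1 call among 2 Zic genes with an adjusted p where 2.23% of all genes were called. Zic5 had 0.27 ± 0.39 (adjusted p 0.965) in that authors' deposited table. Zic1 had 1.37 ± 1.53 and no adjusted p there. Of 4 trophoblast markers 2 were called higher in KO-L (3.20 to 15.7 RPM), of 4 mesoderm markers 1 (1.35 to 8.51 RPM), and of the ESC, neural precursor, endoderm and neural crest markers 0; their part was not tested.

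The calls in the libraries labelled KO-L3D and KO-S3D were as follows. In KO-L3D, where 18.3% of genes were called, Zic5 fell by 1.52 ± 0.45 (adjusted p 0.00818), from 11.6 to 4.03 RPM, while Zic2 had 0.02 ± 0.37 (adjusted p 0.979), both in the authors' deposited table. Zic1 had 1.80 ± 1.43 there (adjusted p 0.421). In KO-S3D, where 3.23% of genes were called, Zic2 had 1.25 ± 0.40 in the authors' deposited table, at 17.0 RPM in WT and 40.4 in KO-S3D. Its adjusted p was 0.0506 and its unadjusted p 0.00165, so that it missed the threshold; with fold changes centred on the median gene the adjusted p was 0.0425. Zic5 had -0.37 ± 0.51 (adjusted p 0.827) in the same authors' deposited table. All 4 trophoblast markers were called higher in KO-L3D (3.42 to 153 RPM) and 0 in KO-S3D (8.20 to 96.9 RPM), and of the neural crest markers 3 and 1 were called higher (14.8 to 91.5 and 14.1 to 63.3 RPM). Of 6 ESC markers, 2 were called higher in KO-L3D and 1 in KO-S3D. Of 6 neural precursor markers, 1 was called lower in KO-L3D and 0 were called in KO-S3D. Of the endoderm and mesoderm markers 0 were called in either. The part of these markers was not tested.

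The exon 4 lines had no Zic call in ESC, and neither had the difference between them (0.0766% of genes called). In CSex4, where 2.41% of genes were called, the authors' deposited table gave 0.35 ± 0.38 for Zic2 (adjusted p 0.870) and -0.01 ± 0.44 for Zic5 (adjusted p 0.999). In Deltaex4, where 0% of genes were called, it was -0.26 ± 0.51 for Zic2 and -0.36 ± 0.53 for Zic5 in the authors' deposited table, both with an adjusted p of 0.99998. By DESeq2, 0 Zic genes had an unadjusted p under 0.05 in these comparisons. The 95% intervals for Zic2, -0.39 to 1.08 in CSex4 and -1.26 to 0.73 in Deltaex4, are wide beside the change of 0.75 in the KO. In CSex4, 3 of 6 ESC markers were called lower (2828 to 1530 RPM) and 2 of 4 trophoblast and 1 of 4 mesoderm markers higher (3.08 to 14.1 and 1.43 to 7.74 RPM), and their part was not tested.

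**Figure D3:**
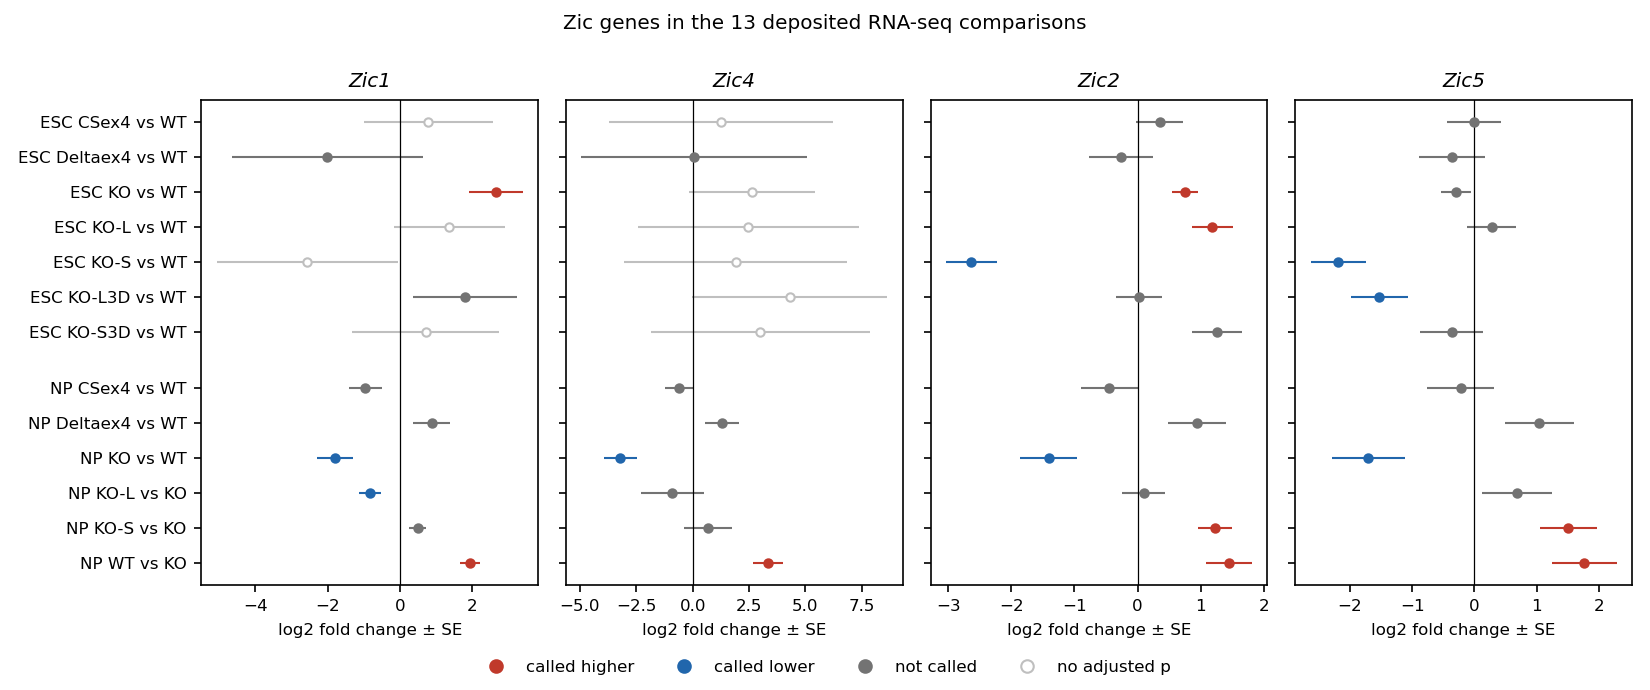
Log2 fold change ± SE of each Zic gene in the 13 deposited comparisons; red and blue points are called higher and lower, filled grey points are not called, open points have no adjusted p, and each panel has its own scale. Zic2 and Zic5 are called lower in ESC KO-S, and all 4 genes are called lower in NP KO against WT and higher in NP WT against KO.

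In NP, all 4 Zic genes were lower without Suz12. The NP KO table calls 21.4% of its genes in either direction and 9.85% lower, and 4 of 4 Zic genes were called lower. Zic4 had the largest fold change of the 4, -3.21 ± 0.72 (adjusted p 1.26e-04), from 8.08 to 0.872 RPM or 9.27-fold, in the authors' deposited table. Zic1 fell by 1.79 ± 0.50 (adjusted p 0.00333), from 87.8 to 25.5 RPM, in the authors' deposited table. Zic5 fell by 1.70 ± 0.59 (adjusted p 0.0223), from 9.54 to 2.94, and Zic2 fell by 1.41 ± 0.45 (adjusted p 0.0124), from 32.5 to 12.3, in the authors' deposited table.

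The table of the second WT pair against KO, which shares the KO libraries but no WT library with the first, had all 4 genes higher in WT. It calls 32.9% of its genes, and 15.6% higher. In the authors' deposited table Zic1 was higher in WT by 1.94 ± 0.29 (adjusted p 3.26e-10) and Zic4 by 3.33 ± 0.67 (adjusted p 6.20e-06). Zic2 was higher by 1.45 ± 0.36 (adjusted p 4.16e-04) and Zic5 by 1.76 ± 0.52 (adjusted p 0.00337) in the authors' deposited table. With their sign turned, these values differed from those against the first pair by 0.04 on the log2 scale for Zic2, 0.06 for Zic5, 0.11 for Zic4 and 0.16 for Zic1.

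Marker lists had calls in both directions in NP KO, where 21.4% of genes were called. Of 6 neural precursor markers, 5 were called lower and 0 higher, and their summed level went from 645 RPM in WT to 118 in KO. Of 4 endoderm markers (Gata4, Gata6, Sox17, Foxa2), 3 were called higher (135 to 442 RPM), and of 4 trophoblast markers (Cdx2, Hand1, Gata3, Elf5), 3 were called higher (25.8 to 113 RPM). Of 6 ESC markers, 1 was called higher and 1 lower (382 to 218 RPM), and of the mesoderm and neural crest markers 0 were called. Against the second WT pair, where 32.9% of genes were called, 4 ESC markers were lower in WT and 1 higher (218 RPM in KO, 220 in WT). The median log2 fold change of the ESC markers was -0.40 for KO against the first WT pair. It was -1.33 for the second WT pair against KO, the opposite direction. In the second WT pair 5 neural precursor markers were called higher, 3 endoderm and 4 trophoblast markers lower, and 1 neural crest marker higher. No marker of these lists was at 0 in either comparison, and their part in the Zic result was not tested.

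In NP, the rescues were compared with KO. The short-isoform rescue against KO, in a table that calls 34.5% of its genes, had 2 of 4 Zic genes called, both higher, as were 16.4% of all genes. Zic2 rose by 1.22 ± 0.27 (adjusted p 4.21e-05), from 10.4 to 24.2 RPM, and Zic5 by 1.51 ± 0.46 (adjusted p 0.00456), from 2.47 to 7.03, in the authors' deposited table. Zic1 had 0.49 ± 0.24 (adjusted p 0.107) and Zic4 0.68 ± 1.05 (adjusted p 0.673) in the authors' deposited table. The unadjusted p of Zic1 was 0.0440 and the 95% interval of Zic4 was -1.38 to 2.74; no test compared the genes with each other. All 6 neural precursor markers were also called higher in KO-S (108 to 484 RPM). All 4 endoderm markers (414 to 200 RPM) and all 4 trophoblast markers (108 to 45.3 RPM) were called lower. Of 6 ESC markers 1 was called higher and 2 lower (210 to 229 RPM). Of the mesoderm markers 1 was called higher, and of the neural crest markers 1 lower. The part of these markers was not tested.

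No Zic gene was called higher in the long-isoform rescue. In the authors' deposited table Zic1 fell by 0.82 ± 0.30 below its level in KO (adjusted p 0.0302), from 20.4 to 11.5 RPM, the 1 Zic call in a table that calls 24.7% of its genes. Zic2 had 0.09 ± 0.34 (adjusted p 0.897), Zic5 0.68 ± 0.56 (adjusted p 0.443) and Zic4 -0.91 ± 1.40 (adjusted p 0.731) in the authors' deposited table. Of the neural precursor markers 4 were called higher and 1 lower in KO-L (111 to 331 RPM), and of the ESC markers 4 higher and 1 lower (201 to 761 RPM). Endoderm markers had 3 calls lower (422 to 171 RPM) and trophoblast markers 2 (109 to 30.3 RPM). Of the mesoderm markers 1 was called higher, and of the neural crest markers 1 was called higher and 1 lower. The part of these markers in the Zic values was not tested.

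The exon 4 lines lay on opposite sides of WT in NP, but no Zic gene was called in either. In CSex4, where 5.53% of genes were called, all 4 log2 fold changes were below 0 in the authors' deposited table, from -0.96 ± 0.45 for Zic1 (unadjusted p 0.0348, adjusted p 0.267) to -0.22 ± 0.53 for Zic5. In Deltaex4, where 0.0809% of genes were called, all 4 were above 0 in the authors' deposited table, from 0.88 ± 0.52 for Zic1 to 1.30 ± 0.76 for Zic4, each with an adjusted p of 0.99996. By DESeq2 the 1 gene with an unadjusted p under 0.05 was Zic1 in CSex4 and Zic2 (p 0.0401) in Deltaex4. Both tables share their WT libraries. In CSex4, 4 of 6 ESC markers were called higher (353 to 1255 RPM), 3 of 6 neural precursor markers lower (622 to 355 RPM) and 1 of 4 trophoblast markers higher (to 66.5 RPM). In Deltaex4, 0 markers of these lists were called, with neural precursor markers at 595 RPM in WT and 1174 in Deltaex4. The part of these markers in the Zic values was not tested.

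Differences between lines were tested gene by gene from the deposited fold changes and standard errors (z test, Benjamini-Hochberg over all genes with a baseMean of at least 10 in both tables). Where tables share libraries the standard error used is too large. Over 14 pairs, 39 of 56 Zic values could be tested and 12 were called, where the pairs call 0.0071% to 14.3% of all genes. Several of these calls reuse the same libraries, such as those of ESC KO-S, so that they are not separate results.

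In ESC, the rescues differed at the Zic5 and Zic2 locus. Zic2 was higher in KO-L than in KO-S by 3.82 ± 0.52 on the log2 scale (adjusted p 3.62e-10), or 14.1-fold, and Zic5 by 2.46 ± 0.59 (adjusted p 0.00216), or 5.50-fold, in a difference that calls 3.94% of genes. The KO without rescue was also above KO-S, by 3.38 ± 0.45 for Zic2 (adjusted p 8.42e-11) and 1.89 ± 0.50 for Zic5 (adjusted p 0.00857), where 3.76% of genes were called. KO and KO-L were not called apart, where 0.589% of genes were: Zic2 differed by -0.43 ± 0.39 (95% interval -1.20 to 0.33, adjusted p 0.922) and Zic5 by -0.56 ± 0.46 (-1.46 to 0.33, adjusted p 0.892).

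The libraries labelled KO-L3D and KO-S3D were read against the same isoform without the mutation. Each pair also differed in the approximate Suz12 level. It was 104 RPM in KO-L against 63.7 in KO-L3D, and 124 in KO-S against 222 in KO-S3D. The 3D rescues were placed in the Rosa26 locus, and the site of the other rescues is not given here. The mutation, the Suz12 level and any difference in site therefore cannot be told apart. Zic2 was lower in KO-S than in KO-S3D, with a difference of -3.89 ± 0.57 (adjusted p 4.96e-08), in a difference that calls 0.732% of genes. Zic5 differed in that pair by -1.82 ± 0.67 and was not called (adjusted p 0.324). For the long isoform, KO-L minus KO-L3D was 1.16 ± 0.49 for Zic2 (adjusted p 0.169) and 1.80 ± 0.60 for Zic5 (adjusted p 0.0517), neither called, where 4.88% of genes were. KO-L3D and KO-S3D were not called apart, with Zic2 at -1.23 ± 0.54 and Zic5 at -1.16 ± 0.68 for KO-L3D minus KO-S3D (adjusted p 0.99986 for both; 0.0541% of genes called); with the SE scaled by the spread of all genes' statistics Zic2 was called (adjusted p 0.00903). When the SE was reduced for the shared WT libraries, an alternative chosen after seeing the data, Zic2 and Zic5 were called between KO-L and KO-L3D (adjusted p 0.00814 and 4.08e-04) and Zic5 between KO-S and KO-S3D (adjusted p 0.00624). That reduction takes both groups of a table as equal in size. With 3 WT samples and 2 per rescue, the reduced SE tends to be too small here. With the scaled SE these differences were not called (adjusted p 0.710 and 0.488 for KO-L minus KO-L3D, and 0.0954 for Zic5 in KO-S minus KO-S3D).

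In NP, KO-L was below WT for 3 of the 4 genes, both read against KO, in a difference that calls 14.2% of genes. WT exceeded KO-L by 2.77 ± 0.42 for Zic1 (adjusted p 6.25e-09), 4.24 ± 1.55 for Zic4 (adjusted p 0.0455) and 1.35 ± 0.49 for Zic2 (adjusted p 0.0451). With the SE scaled by the spread of all genes' statistics, the Zic2 and Zic4 calls were lost (adjusted p 0.555 for both). Against KO-S, 1 of the 4 genes was called: WT exceeded it by 1.45 ± 0.38 for Zic1 (adjusted p 0.00540), where 4.77% of genes were called. For Zic4, WT exceeded KO-S by 2.65 ± 1.25 (adjusted p 0.312). The adjusted p of Zic4 was 0.0247 once the shared KO libraries were allowed for and 0.297 with the scaled SE. Zic2 and Zic5 in KO-S differed from WT by 0.23 ± 0.45 (95% interval -0.65 to 1.11) and 0.25 ± 0.69 (-1.10 to 1.61), intervals that reach past 1 log2 unit for both genes. KO-L was below KO-S for Zic1, with a difference of -1.32 ± 0.39 (adjusted p 0.0111; 10.3% of genes called), a call lost with the scaled SE (adjusted p 0.193). Zic2 differed in that pair by -1.13 ± 0.43 (adjusted p 0.0746). It was called once the shared KO libraries were allowed for (adjusted p 0.00179) but not with the scaled SE (adjusted p 0.453). CSex4 minus Deltaex4 was -1.84 ± 0.69 for Zic1 and -1.39 ± 0.64 for Zic2 (adjusted p 0.182 and 0.376, with 1.78% of genes called). Both were called once the shared WT libraries were allowed for (adjusted p 0.00388 and 0.0275), and neither was with the scaled SE (adjusted p 0.128 and 0.296).

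The knock-out effect differed between cell types for Zic1 and Zic2. In the authors' deposited tables Zic1 stood at 2.66 in ESC KO and at -1.79 in NP KO, a difference of -4.45 ± 0.90 (adjusted p 2.39e-05), and Zic2 0.75 and -1.41, a difference of -2.15 ± 0.50 (adjusted p 3.24e-04), where 14.3% of genes were called. Zic5 differed by -1.41 ± 0.64 and was not called (adjusted p 0.129). Both calls were lost with the scaled SE (adjusted p 0.0672 for Zic1 and 0.151 for Zic2). The cell-type differences of CSex4 (4.97% of genes called) and Deltaex4 (0.0071%) gave no Zic call by the same z test and 0 Zic genes at an unadjusted p under 0.05; the largest for Zic2 was 1.20 ± 0.68 in Deltaex4 (unadjusted p 0.0783). In Deltaex4 the scaled SE, which is smaller there, gave calls for Zic2 (adjusted p 0.0112) and Zic5 (adjusted p 0.00613).

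**Figure D4:**
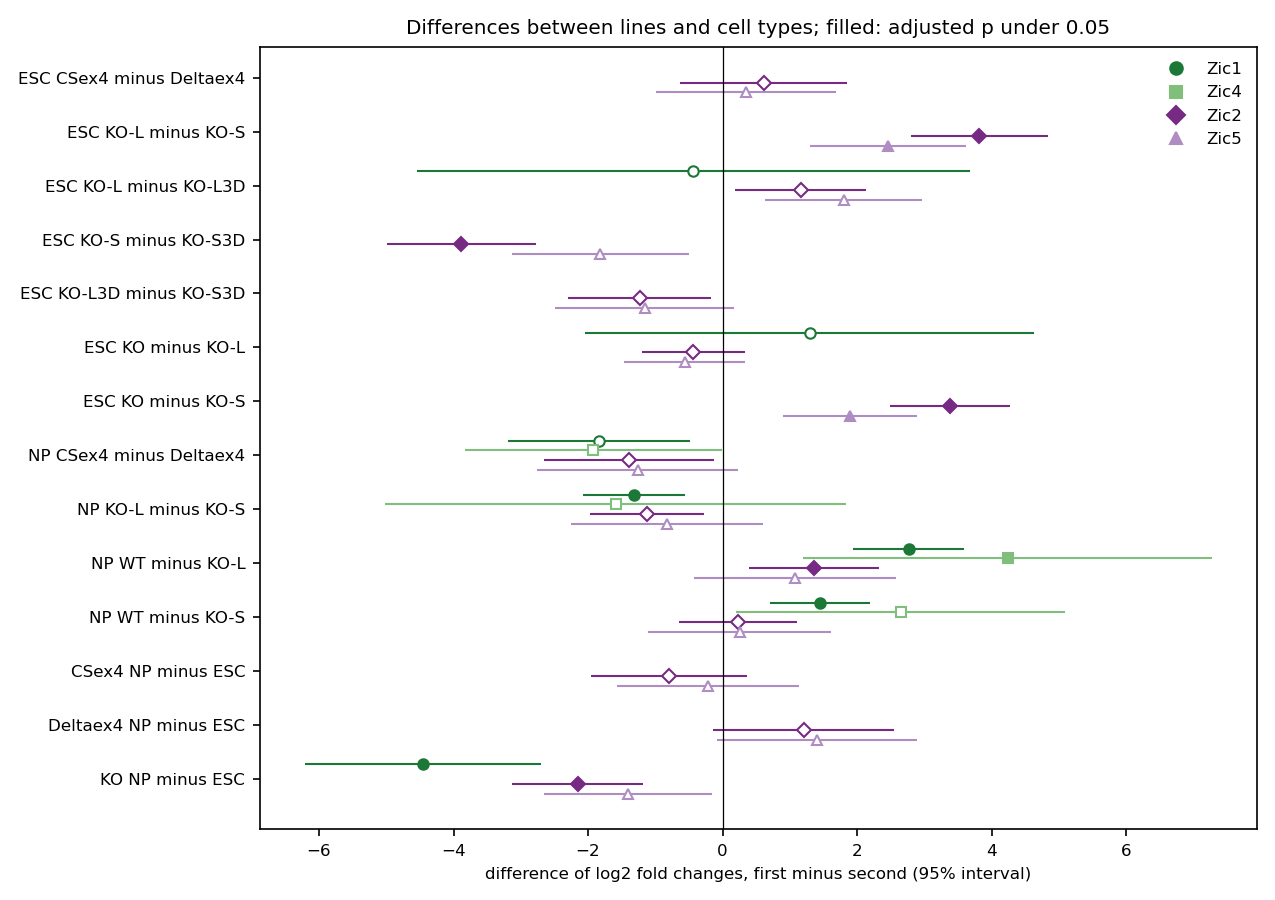
Differences of log2 fold changes between lines or cell types with 95% intervals, for Zic genes with a baseMean of at least 10 in both tables; filled points have an adjusted p under 0.05. Zic2 lies at 3.82 for KO-L minus KO-S and at -3.89 for KO-S minus KO-S3D in ESC.

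The dorsal neural tube genes, which share the best known expression domain of the Zic genes, had more members called higher in ESC KO and more called lower in NP KO; that difference was not tested. In ESC KO, where 18.3% of genes were called, 6 of 12 were called higher and 0 lower: Pax3 (3.40 ± 0.93) and Lmx1a (3.26 ± 0.65), transcription factors of the dorsal neural tube, Wnt3a (3.96 ± 0.69), a roof plate ligand, and Msx2, Tfap2a and Snai2, all in the authors' deposited table. Tfap2a and Snai2 are also among the 4 neural crest markers. The NP knock-out, where 21.4% of genes were called and 9.85% lower, had 4 of 12 called lower and 1 higher: Wnt1 (-6.90 ± 0.55), Pax7 (-4.78 ± 0.64), Pax3 (-2.70 ± 0.45) and Msx1 (-1.82 ± 0.61) against Dlx5 (2.87 ± 1.11) in the authors' deposited table. The list's median was 3.23 in ESC KO (over the 7 with a baseMean of at least 10) and -0.44 in NP KO (12), where the median over all genes tested was 0.01 and -0.01.

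The Gli relatives and the Hedgehog pathway had calls in both directions, in tables that call 18.3% (ESC KO) and 21.4% (NP KO) of their genes. Of 6 Gli and Glis genes, Glis3 was called higher (2.47 ± 0.35) and Gli1, a target and effector of the pathway, lower (-1.70 ± 0.20) in the authors' deposited table for ESC KO. For NP KO, Gli2 (-1.99 ± 0.39) and Gli3 (-1.02 ± 0.33) were called lower and 0 of 6 higher in the authors' deposited table. Of 11 Hedgehog pathway genes, 2 were called higher and 2 lower in NP KO. These were the ligands Shh (3.13 ± 0.54) and Ihh (2.74 ± 0.41) on the higher side and the co-receptors Boc (-3.76 ± 0.43) and Cdon (-1.13 ± 0.41) on the lower side in the authors' deposited table. In ESC KO the receptor Ptch1 (-2.20 ± 0.17) was called lower and the ligand Dhh (2.17 ± 0.64) and Boc (1.33 ± 0.41) higher in the authors' deposited table.

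In ESC KO-S, where Zic2 and Zic5 fell, 7.91% of all genes were called, 3.63% lower. There, 2 of 6 neural plate genes were also called lower, Pax6 (-2.51 ± 0.64, adjusted p 0.00292), an eye and neural transcription factor, and Otx2 (-1.63 ± 0.32, adjusted p 2.44e-05), a factor of the anterior neural plate and of primed pluripotent cells, in the authors' deposited table. Sox1, an early neural gene, was called higher there (2.35 ± 0.52, adjusted p 3.06e-04) in the authors' deposited table. These names from the KO-S table were chosen after their values were seen. Of the 6 ESC markers, 1 was called higher and 0 lower in KO-S (2874 to 3125 RPM), and of 4 endoderm markers 0 were called although their sum stood at 12.8 in WT and 131 in KO-S; no endoderm marker was at 0, 1 trophoblast marker was called higher (3.32 to 8.85 RPM), and their part in the Zic values was not tested.

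Over the 13 comparisons, which share many libraries, the log2 fold changes of Zic2 and Zic5 had a Pearson r of 0.80. Among 13585 genes with a baseMean of at least 10 in every table, those most like Zic2 were Cntnap2 (0.89), Mllt3 (0.88) and 2610035F20Rik (0.88), the last an RNA gene that ends 185 bp before Zic2, and those most like Zic5 were Runx1t1, Syt4 and Pax6 (0.94 each). These values describe the 13 comparisons and have no test. No such genes are named for Zic1 and Zic4, whose baseMean was under 10 in 4 and in 7 of the ESC tables.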

How the data were processed

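RNA-seq and ChIP-seq of mouse ESC and NP were processed with TopHat, Bowtie, DESeq2 and DiffBind on mm10 per the submitters' processing notes; versions and counting settings are not given in the sources used here. The authors deposited 13 tables with 1 row per gene symbol: a baseMean (a signal, the mean of size-factor-scaled read counts), a log2 fold change with its SE, and a p-value and adjusted p-value, named per the file headers as DESeq2 names them. The 2 deposited region lists hold a value between 0 and 1 per region, treated as a score. Summed baseMean was 26085140 to 31499803 scaled reads per table. Calls used the deposited adjusted p under 0.05; nothing was refitted, since the tables hold no value per library. The deposited tables are named as paired, so that their SE and p-values may already come from a fit with paired libraries. Differences were computed with numpy 2.4.6, scipy 1.17.1 and pandas 2.3.3 and tested on simulated data: of genes simulated like ESC KO-L and KO-S (14378 genes), 2% were recovered at a log2 difference of 1 and 51% at 2. Genes were placed by RefSeq (GRCm38.p6). The members and gene lists were chosen with earlier results of these data known. Named were the Zic genes, Suz12, list members called in a knock-out table, and the 3 genes most like Zic2 and Zic5 (those of Zic1 and Zic4 were left out for low baseMean). Alternatives were a stricter threshold, other adjustments, centring, other baseMean minimums, a scaled SE, the other WT pair and other distances to regions. A member of a related gene list is not reported here.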

Additional observations from a re-analysis of the deposited data

Results flagged for a closer look

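In the knock-out, the effect of losing Suz12 differed between ESC and NP for Zic1 and Zic2 by the z test of the difference itself. For Zic1 the NP value minus the ESC value was -4.45 ± 0.90 on the log2 scale (adjusted p 2.39e-05), with a 95% interval of -6.21 to -2.69. For Zic2 it was -2.15 ± 0.50 (adjusted p 3.24e-04), with an interval of -3.13 to -1.18. In the authors' deposited tables the ESC value of Zic1 rests on a baseMean of 22.5 and the NP value on 1639, while both Zic2 values rest on more than 640 scaled reads. With the SE scaled by the spread of all genes' statistics, neither difference was called.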

How the results depend on the processing

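No paired analysis was possible because the tables hold statistics of comparisons and no values per library, so that no replicate block could be fitted or removed, although the tables are named as paired; leaving out a replicate could not be done for the same reason. The 17 Zic calls became 13 at an adjusted p under 0.01, 17 with either other adjustment and 18 after centring. The 12 called differences between lines became 10 with no baseMean minimum, 11 with a minimum of 100, 10 with the scaled SE, and 19 when the SE was reduced for shared libraries, the alternative chosen after seeing the data. With the scaled SE, 5 differences lost their call and 3 gained one. No Zic value changed sign in these settings; with the baseMean minimum the median of the dorsal neural tube list did in NP KO-L vs KO (-0.38 to 0.24) and in ESC Deltaex4 vs WT (0.06 to -0.07). NP KO had 4 calls against either WT pair. All 8 combinations of a Zic gene and a region list kept a region when only overlap counted. Allowing 10000 bp could therefore not lose one and is no further check. The 127 calls in the related lists did not depend on the baseMean minimum. Depth limits Zic4 and Zic1 in ESC, where most tables had a baseMean under 10.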
